A study of Mus musculus with 11 samples.

Results

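Excitatory neurons of the cerebral cortex were followed through 9 layer marker genes: Cux2 and Rasgrf2 for the upper layers, Rorb for layer 4, Fezf2, Bcl11b, Tle4 and Foxp2 for the deep layers, and Neurod6 and Slc17a7 for excitatory neurons of all layers. They were chosen by name as established layer markers and matched by symbol to Ensembl identifiers. They make up 9 of the 53700 gene identifiers counted in each library and 9 of the 17626 genes that were tested.

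Gene expression was measured by QuantSeq, which sequences 1 tag near the poly(A) end of a transcript, in RNA from homogenized cerebral cortex of female 5xFAD mice at 8 months of age. The label gives the strain of every animal as C57BL/6. 5xFAD mice carry transgenes driven by the neuronal Thy1 promoter and deposit amyloid in the brain. The Abi3 WT group held 6 animals with both copies of Abi3, and the Abi3 KO group held 5 animals in which the Abi3 locus was deleted in the germline. ABI3 belongs to the WAVE complex that regulates the actin cytoskeleton, and in the brain it is expressed mainly by microglia. Both groups carried the 5xFAD transgenes and, per the study's methods, were heterozygous for a Trem2 coding variant that came with the SJL background of the transgenic line. The deletion allele was made in C57BL/6N. The comparison is therefore between Abi3 genotypes in amyloid-bearing cortex, and animals without the transgenes were not analysed here.

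Excitatory neurons of the cortex are glutamatergic projection neurons that are stacked in layers, and each layer sends its axons to a different target. Upper layer neurons connect cortical areas with each other, layer 4 neurons receive input from the thalamus, layer 5 neurons project to the brainstem and spinal cord, and layer 6 neurons project back to the thalamus. These identities are set and held by transcription factors, several of which repress one another, and in mice with Thy1-driven transgenes the layer 5 neurons are among the cells that accumulate the transgene product. In RNA from a whole tissue, fewer cells of a type and less RNA per cell cannot be told apart.

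Libraries held 3307854 to 5501958 reads in genes in the Abi3 WT group and 3202310 to 3933819 in the Abi3 KO group. Abi3 itself had 10 to 38 reads in each Abi3 WT library, 0 reads in 4 Abi3 KO libraries and 2 in the other, as the labels state. Reads that fell outside annotated genes amounted to 59.3 to 68.8 per 100 gene reads in Abi3 WT and 49.8 to 62.5 in Abi3 KO libraries. Each layer marker had between 56 and 1550 reads in every animal. Counting error alone would give a coefficient of variation of 2.99% to 11.5% for them, and intervals of this kind cover counting error only.

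Because each QuantSeq tag is primed from the poly(A) tail, a level here is a count of tags from 3′ ends. The count tables do not show which 3′ end was used. The last 30 bases of the canonical transcript (GENCODE vM39, GRCm39) were read for all 9 markers. An AATAAA or ATTAAA poly(A) signal, in capitals, stood in 4 of the 9 windows, compared with 57.7% of 21757 canonical protein-coding transcripts. AATAAA alone stood in 2 of the 9, compared with 46.1%. Both were searched on the transcript strand. The 4 windows are shown because they are the marker ends that hold a signal.
Rorb, chr19:18907969-18907998, minus strand: tgaacaaATTAAAagaagaaaaagaaaaaa
Fezf2, chr14:10127651-10127680, plus strand: tatgactcAATAAAtagaaccattagtgcg
Bcl11b, chr12:107876656-107876685, minus strand: AATAAAttgggacatttaacttgatctcca
Neurod6, chr6:55654807-55654836, minus strand: aaagcaATTAAAcatagatatttccactta

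The signal began 23 bases before the end in Rorb, 22 in Fezf2, 30 in Bcl11b and 24 in Neurod6. The Rorb window also ends in a run of adenines broken by guanines. No match in the windows of Cux2, Rasgrf2, Tle4, Foxp2 and Slc17a7 says only that these letters are not in those 30 bases.

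None of the 9 layer markers passed the threshold of an adjusted p of 0.05 or less between Abi3 KO and Abi3 WT mice. Adjusted p-values came from the DESeq2 Wald test with Benjamini-Hochberg adjustment. Of the 17626 genes tested, 0.539% (95) passed, 0.34% higher and 0.199% lower in Abi3 KO mice. DESeq2 set aside genes of low count before the adjustment and gave 6487 genes an adjusted p, all 9 markers among them, and the 95 are 1.46% of these. None of the 9 had an unadjusted p under 0.05, compared with 8.58% of all genes tested (4.14% higher and 4.44% lower). Both edgeR and limma also called 0 of the 9, and each gave 1 of them, Neurod6, an unadjusted p under 0.05. The groups did not separate completely for any of the 9, compared with 1.04% of genes (0.539% with all Abi3 KO animals above and 0.499% with all below). Among the 7780 genes with a mean of at least 50 normalized counts, as all 9 markers have, 11.1% had an unadjusted p under 0.05, 1.54% did not overlap and 54.8% had a log2 fold change above 0. Log2 fold changes, given throughout as Abi3 KO minus Abi3 WT, were above 0 for 4 markers and below 0 for 5, with a median of −0.04, beside a median of −0.0033 and 49.5% above 0 over all genes tested. By point estimate, all 4 deep layer markers lay below 0, while Rorb and both markers of all layers lay above it. The 2 upper layer markers lay on either side of 0. Every 95% confidence interval of this fit included 0, and a difference between layers was not tested. Fezf2 (−0.04) and Foxp2 (−0.05) lay close to 0, and in some alternative fits only 2 or 3 of the 4 deep layer markers were below it.

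**Figure D1:**
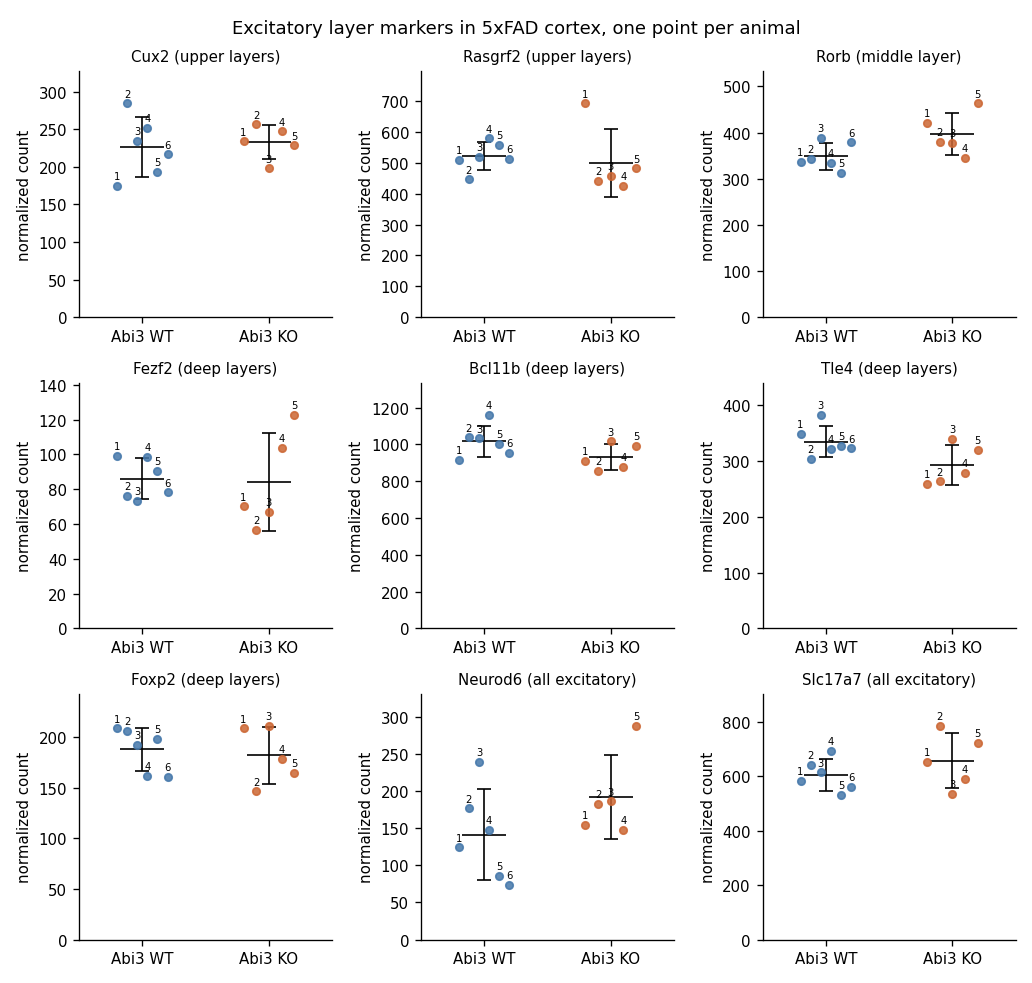
Normalized counts (DESeq2 size factors, y axis) of the 9 layer markers in each animal, with Abi3 WT and Abi3 KO animals side by side and the group mean and SD marked. The groups overlap for every marker, and single Abi3 KO animals stand apart for Rasgrf2 (693.2) and Neurod6 (287.9).

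Cux2, a homeobox transcription factor of layers 2 to 4 (chr5:121994429-122188521), measured 174.6, 225.6 and 284.4 normalized counts at the lowest, the median and the highest of the 6 Abi3 WT animals. The 5 Abi3 KO animals measured 233.9, 256.5, 198.1, 247.3 and 228.7. Every Abi3 KO value thus lay inside the Abi3 WT range, and Cux2 was the only marker with that arrangement. The means were 226.0 ± 39.9 (SD, n = 6) and 232.9 ± 22.3 (SD, n = 5), a log2 fold change of 0.04 (SE 0.13, DESeq2 adjusted p = 0.939) with an interval of −0.22 to 0.30.

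Rasgrf2, a guanine nucleotide exchange factor for Ras that is enriched in layers 2 and 3 (chr13:92027891-92269375), measured 447.0, 516.5 and 580.2 normalized counts at the lowest, the median and the highest Abi3 WT animal. Abi3 KO animals measured 693.2, 442.4, 458.4, 426.9 and 482.5. Abi3 KO replicate 1 was above every Abi3 WT animal, and replicates 2 and 4 were below all of them. The means were 521.9 ± 46.1 and 500.7 ± 109.6, with a log2 fold change of −0.06 (SE 0.12, DESeq2 adjusted p = 0.899) and an interval of −0.29 to 0.17. Without Abi3 KO replicate 1 it was −0.21, with an unadjusted p of 0.0306 and a DESeq2 adjusted p of 0.379. Choroid plexus genes summed to 509.2 CPM (reads scaled to a common library total) in that library, and their part in the Rasgrf2 value was not tested.

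Rorb, a nuclear receptor of layer 4 neurons (chr19:18907969-19088585), was the only marker of its layer among the 9. Abi3 WT animals measured 312.9, 339.7 and 389.1 at the lowest, the median and the highest. Abi3 KO animals measured 420.5, 379.8, 377.2, 345.6 and 463.2, and replicates 1 and 5 stood above all Abi3 WT animals while none stood below them. The means were 349.0 ± 29.0 and 397.3 ± 45.5. The log2 fold change was 0.19 (SE 0.10) with an interval of −0.01 to 0.39, an unadjusted p of 0.0578 and a DESeq2 adjusted p of 0.444. Rorb had the lowest unadjusted p of the 9 markers, 4 of 5 Abi3 KO animals were above the Abi3 WT mean, and the difference did not pass the threshold.

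Fezf2 is a zinc finger transcription factor that specifies the layer 5 neurons projecting below the cortex and acts upstream of Bcl11b (chr14:10121574-10127680). Abi3 WT animals measured 73.2, 84.4 and 99.3 normalized counts at the lowest, the median and the highest. The Abi3 KO animals measured 70.3, 56.6, 66.8, 103.9 and 122.9. Replicates 1, 2 and 3 were below all Abi3 WT animals and replicates 4 and 5 above all of them, so that no Abi3 KO value lay inside the Abi3 WT range. The group means were nevertheless close, 86.1 ± 11.7 and 84.1 ± 28.0, with a log2 fold change of −0.04 (SE 0.21, DESeq2 adjusted p = 0.971) and an interval of −0.44 to 0.37. The coefficient of variation was 13.5% in Abi3 WT and 33.3% in Abi3 KO animals. The spread within the groups was not tested.

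Bcl11b, known as Ctip2, is a zinc finger factor at high level in layer 5 neurons and also in striatal neurons (chr12:107876656-107970417). Abi3 WT animals measured 916.6, 1017 and 1161 normalized counts at the lowest, the median and the highest. Abi3 KO animals measured 911.3, 855.5, 1015.8, 876.4 and 993.5, and all 5 were below the Abi3 WT mean of 1017 ± 84.8. Replicates 1, 2 and 4 were below every Abi3 WT animal and the other 2 lay inside their range. The log2 fold change was −0.13 (SE 0.08, DESeq2 adjusted p = 0.505) with an interval of −0.28 to 0.02, and the Abi3 KO mean was 930.5 ± 71.0.

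Tle4 is a transcriptional corepressor of layer 6 neurons projecting to the thalamus (chr19:14425417-14575572). Abi3 WT animals measured 303.8, 324.7 and 382.8 at the lowest, the median and the highest. Abi3 KO animals measured 259.0, 263.6, 339.0, 279.0 and 319.8, of which replicates 1, 2 and 4 were below every Abi3 WT animal. These are the animals that were also lowest for Bcl11b. The means were 334.2 ± 27.7 and 292.1 ± 35.5, and the log2 fold change of −0.19 (SE 0.11, unadjusted p = 0.0658, DESeq2 adjusted p = 0.465) had an interval of −0.40 to 0.01.

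Foxp2, a forkhead transcription factor of layer 6 that is also present in striatal neurons (chr6:14901287-15441976), measured 160.8, 195.5 and 208.9 at the lowest, the median and the highest Abi3 WT animal. The Abi3 KO animals measured 208.7, 146.5, 211.3, 178.4 and 165.0. Replicate 3 was above and replicate 2 below the Abi3 WT range. The means of 188.1 ± 21.5 and 182.0 ± 28.0 differed by a log2 fold change of −0.05 (SE 0.13, DESeq2 adjusted p = 0.932), with an interval of −0.31 to 0.21. The Foxp2 gene overlaps another gene, Gm55026, on the same strand, and its count is uncertain where the overlap holds reads.

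Neurod6, a basic helix-loop-helix transcription factor of pyramidal neurons (chr6:55654807-55658326), had the widest spread of the 9 among Abi3 WT animals. Abi3 WT animals measured 74.1, 135.9 and 239.5 at the lowest, the median and the highest, and Abi3 KO animals measured 154.2, 182.8, 186.2, 147.9 and 287.9. Replicate 5 stood above all Abi3 WT animals and the other 4 lay inside their range. The coefficient of variation was 43.3% in Abi3 WT and 29.4% in Abi3 KO, compared with 8.05% and 7.6% from counting error. All 5 Abi3 KO values were above the Abi3 WT mean of 141.4 ± 61.3, and the Abi3 KO mean was 191.8 ± 56.3. The log2 fold change was 0.44 (SE 0.32, DESeq2 adjusted p = 0.616), the widest interval of the 9, from −0.19 to 1.07. It was 0.65 without Abi3 WT replicate 3 (unadjusted p = 0.00399, DESeq2 adjusted p = 0.111) and 0.25 without Abi3 KO replicate 5 (unadjusted p = 0.309, no adjusted p). Choroid plexus genes summed to 632.7 CPM in the latter library and their part in the Neurod6 value was not tested. Unadjusted p-values from edgeR and limma were 0.0319 and 0.0205, and their adjusted p-values were 0.521 and 0.485.

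Slc17a7 encodes the vesicular glutamate transporter VGLUT1, which loads glutamate into synaptic vesicles of cortical excitatory neurons (chr7:44813305-44825644). Abi3 WT animals measured 533.1, 599.1 and 693.5 at the lowest, the median and the highest. Abi3 KO animals measured 654.4, 785.8, 534.8, 590.7 and 722.6, with replicates 2 and 5 above all Abi3 WT animals. The means were 604.8 ± 58.3 and 657.7 ± 100.3, and the log2 fold change of 0.12 (SE 0.10, DESeq2 adjusted p = 0.680) had an interval of −0.08 to 0.32. A small RNA gene, Mir7055, lies within Slc17a7 on the same strand.

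Because the markers lie on both sides of 0, their shares by layer within each library were compared next. These do not depend on the size factors. Of the reads of the 7 layer markers, Neurod6 and Slc17a7 left out, the upper layer markers took 26.4% to 28.6% in Abi3 WT animals (27.5% ± 0.848, SD, n = 6) and 24.6% to 33.1% in Abi3 KO animals (28.0% ± 3.36, SD, n = 5). The deep layer markers took 59.7% ± 1.03 and 56.9% ± 3.58. Rorb took 11.5% to 14.4% in Abi3 WT, with a mean of 12.8%, and 14.1% to 16.7% in Abi3 KO, with a mean of 15.1%. The Rorb share was 2.31 percentage points higher in Abi3 KO on average, with overlap between the groups, and no test was made of these shares.

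The log2 ratio of upper to deep layer reads was −1.12 ± 0.06 in Abi3 WT animals, from −1.20 to −1.05. The 5 Abi3 KO animals had ratios of −0.64, −0.92, −1.31, −1.09 and −1.17, with a mean of −1.03 ± 0.26. The Abi3 KO animals extended beyond the Abi3 WT range on both sides, replicates 1 and 2 toward the upper layers and replicate 3 toward the deep layers. The difference of the means, 0.09, was smaller than the spread among Abi3 KO animals. Without Abi3 KO replicate 1 it was −0.0036, and with the other upper and deep layer genes added it was 0.045. That animal held the highest Rasgrf2 level and the lowest Tle4 level of the group.

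**Figure D2:**
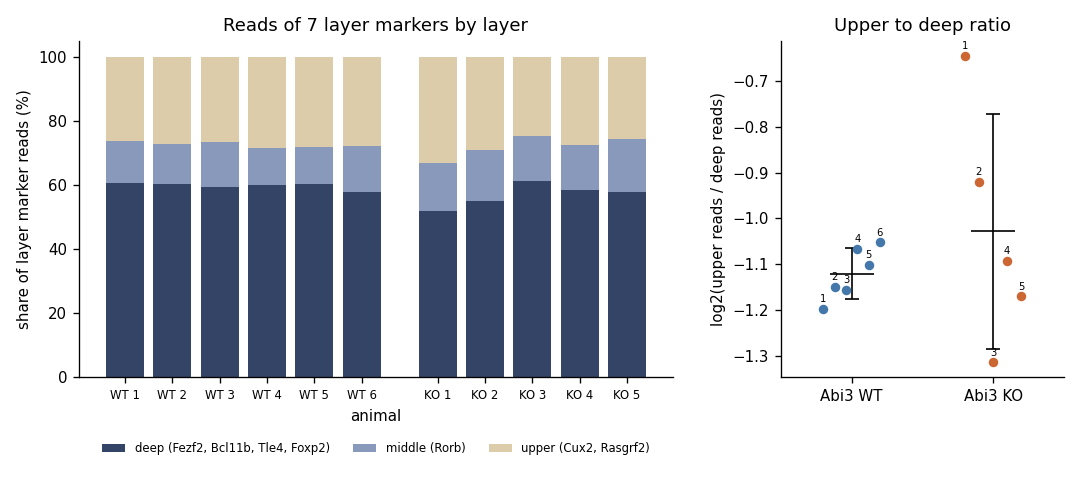
Left, stacked bars of the share of the 7 layer markers' raw reads (y axis, percent) taken by the deep, middle and upper layer markers in each of the 11 animals; right, the log2 ratio of upper to deep layer reads (y axis) per animal, with the replicate number at each point and the group mean and SD as bars. Abi3 WT animals lie between −1.20 and −1.05 in that ratio, and Abi3 KO animals spread from −1.31 to −0.64.

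The 51 other layer and excitatory genes, of which 50 were tested, were read in the same fit. A single one rose, none fell, 27 had log2 fold changes above 0 and 23 below, and 4 higher and 3 lower genes had an unadjusted p under 0.05. Of the genes of the upper layers, 7 of 11 were given an adjusted p and 0 were called. The median log2 fold change of the 11 was 0.01. Mdga1, a cell adhesion protein of layers 2 and 3, had the lowest p of them, with 31.1 ± 9.25 normalized counts in Abi3 WT, 15.5 ± 6.31 in Abi3 KO, a log2 fold change of −1.01 and an unadjusted p of 0.00515. It was too low in count to be given an adjusted p. None of 6 layer 4 genes besides Rorb was called or had an unadjusted p under 0.05, and their median was 0.04. Only 1 of the 6 was given an adjusted p, so the others could not be called.

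Of 24 other deep layer genes, 23 were tested and 13 were given an adjusted p, of which 1 rose. Among the 23, 10 lay above 0 and 13 below, with a median of −0.09. The gene that rose was Rprm, a p53-induced cell cycle inhibitor that marks layer 6 neurons. Rprm measured 116.4, 185.6 and 213.0 normalized counts at the lowest, the median and the highest Abi3 WT animal, and 374.4, 340.4, 236.3, 180.7 and 308.4 in the Abi3 KO animals. In 4 of 5 Abi3 KO animals it was above all Abi3 WT animals. The log2 fold change was 0.73 (SE 0.18, DESeq2 adjusted p = 0.0101), opposite in sign to the layer 6 markers Tle4 and Foxp2. The call was lost with limma (log2 fold change 0.70, adjusted p = 0.0751) and with the striatal level as a covariate (0.80, DESeq2 adjusted p = 0.287). It was also lost without Abi3 KO replicate 1 (0.62, DESeq2 adjusted p = 0.0744) or without Abi3 KO replicate 2 (0.67, DESeq2 adjusted p = 0.0682). Leaving out Abi3 WT replicate 2 gave 0.75 and left Rprm with no adjusted p. With the reads outside genes as a covariate, the Rprm estimate was −0.04.

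Other deep layer genes pointed in different directions and did not pass. Syt6, a synaptotagmin of layer 6 neurons, measured 83.7 to 119.8 normalized counts in Abi3 WT and 42.4 to 94.9 in Abi3 KO (log2 fold change −0.47, DESeq2 adjusted p = 0.266). Etv1, a transcription factor of layer 5, measured 142.7 ± 17.1 and 181.4 ± 40.3 (0.35, DESeq2 adjusted p = 0.342). Syt6 and Etv1 were named after their values were seen. Among 10 other genes listed for excitatory neurons, 8 lay above 0, with a median of 0.18. An adjusted p was given to 8 of the 10, and none was called. Their highest value was that of Slc17a6 (0.33), which is found mainly in thalamic neurons. The summed level of the 10 was 4574 ± 295 CPM in Abi3 WT and 4575 ± 547 in Abi3 KO. Arpp21, a phosphoprotein regulated by cyclic AMP, had −0.19 (DESeq2 adjusted p = 0.106), and Neurod2, the relative of Neurod6, had 0.30 (DESeq2 adjusted p = 0.266).

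**Figure D3:**
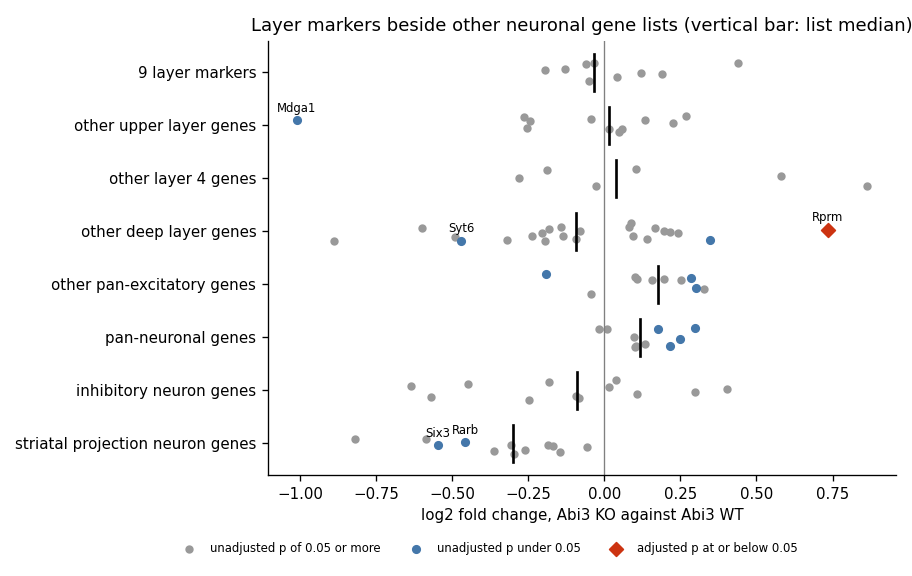
Log2 fold change (x axis, Abi3 KO minus Abi3 WT) of every tested gene of the 9 layer markers and of other neuronal gene lists, 1 point per gene, grey for an unadjusted p of 0.05 or more, blue for one under 0.05, a red diamond for an adjusted p of 0.05 or less, and a vertical bar for the median of each list. The striatal projection neuron genes all lie below 0, and the layer markers lie on both sides of it.

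Genes of the striatum, which adjoins the deep cortex, were lower in point estimate beside the deep layer markers. Of the 12 striatal projection neuron genes, 8 were given an adjusted p and none was called. All 12 had log2 fold changes below 0, with a median of −0.30. Their summed level was 941.2 to 1319 CPM in Abi3 WT and 758.3 to 1181 in Abi3 KO, so the groups overlapped, and 0 of the 12 were at 0 in all animals. Six3, a homeobox factor, had the lowest p of the list (log2 fold change −0.55, DESeq2 adjusted p = 0.106), followed by Rarb, a retinoic acid receptor (−0.46, unadjusted p = 0.0325, no adjusted p). Bcl11b and Foxp2 are also expressed by striatal neurons. With the striatal level of each library as a covariate, the log2 fold change was −0.05 for Bcl11b, 0.15 for Foxp2, −0.10 for Tle4 and −0.10 for Fezf2. Compared with the fit by genotype alone, it was higher for the first 3 and lower for Fezf2. Pan-neuronal genes lay above 0 in 9 of 10 cases, with a median of 0.12 and a summed level of 5743 to 6585 CPM in Abi3 WT and 6087 to 7093 in Abi3 KO. None was called, and Stmn2, which binds tubulin, had the lowest p (0.30, DESeq2 adjusted p = 0.0641), followed by the synaptic vesicle gene Syp (0.25, DESeq2 adjusted p = 0.126). Scaled to the pan-neuronal genes, the log2 fold change of Bcl11b was −0.24, with an unadjusted p of 0.000704 and a DESeq2 adjusted p of 0.0502, which did not pass, and that of Tle4 was −0.31 (DESeq2 adjusted p = 0.148). That scaling moved the median of all genes to −0.12. Inhibitory neuron genes held 0 calls of 12, of which 9 were given an adjusted p, and a median of −0.09.

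The reads outside annotated genes also differed between the groups, with medians of 66.9 and 52.8 per 100 gene reads. With this ratio as a covariate, the log2 fold changes were 0.35 for Fezf2, −0.02 for Rorb, −0.37 for Neurod6 and −0.07 for Slc17a7, and 1 of the 9 markers was above 0. None of the 9 was called in that fit.

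**Figure D4:**
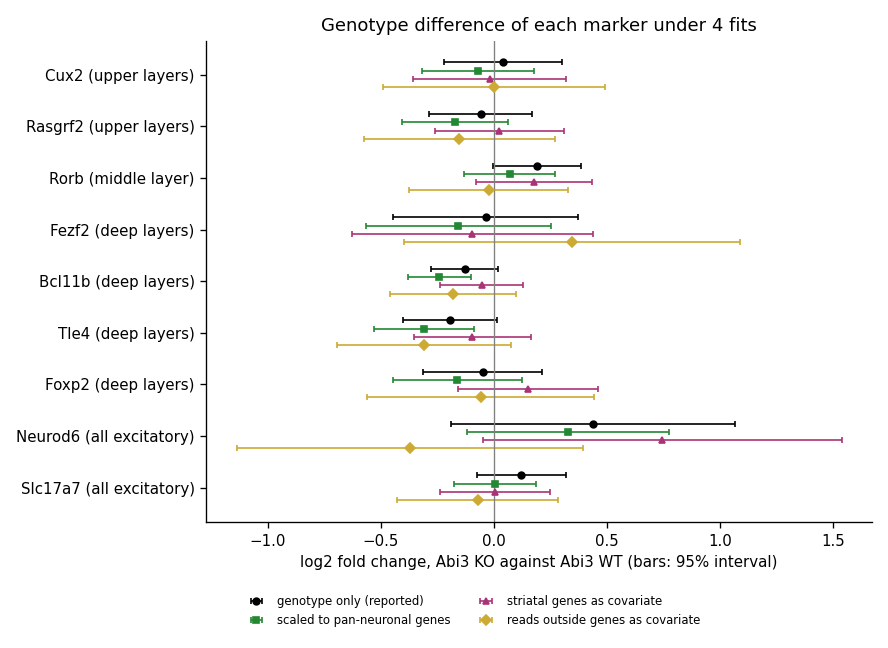
Log2 fold change of the 9 layer markers (x axis, Abi3 KO minus Abi3 WT) with 95% confidence intervals under 4 fits of the 11 animals: genotype only (black circles), scaled to pan-neuronal genes (green squares), with the striatal genes (magenta triangles) or the reads outside genes (yellow diamonds) as a covariate. All 9 intervals of the genotype-only fit include 0, and those of Bcl11b (−0.24) and Tle4 (−0.31) lie below 0 with pan-neuronal scaling, where neither passed after adjustment.

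Co-variation between the markers was described across animals. Over 11 animals, with the group means removed on the log2(normalized count + 1) scale, the Pearson r of the 36 pairs ran from −0.60 (Foxp2 with Slc17a7) to 0.62 (Cux2 with Slc17a7), with a median of 0.10. The 8 pairs of the same layer class had a median r of 0.20 and the other 28 a median of 0.08. Cux2 and Rasgrf2 had r = −0.18, and the 6 pairs of deep layer markers ran from −0.07 to 0.37. The animals share libraries and size factors across genes, so these are descriptions.

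For each marker, the genes closest to it by the same r among 7780 genes with a mean of at least 50 normalized counts had r of 0.87 to 0.93. These r are the highest picked from 7780 genes over few animals, and such a pick can be high without any link between the genes. They were not compared with chance, so the genes are listed as a description only. Cux2 was closest to Atp6v1b2 (0.92) and Zfp704 (0.90), and Rasgrf2 to Acsl5 (0.91) and Prkacb (0.91). Rorb was closest to Mxd1 (0.92) and Atf6b (0.89). Among the deep layer markers, Fezf2 was closest to Epop (0.90) and to the microglial gene Tmem119 (0.90), Bcl11b to Prkar1a (0.93) and Ppm1l (0.91), Tle4 to Ankrd6 (0.92) and Sbk1 (0.87), and Foxp2 to Usp9x (0.88) and Anp32b (0.87). Neurod6 was closest to Homer1 (0.92), a synaptic scaffold gene, and Sem1 (0.91), and Slc17a7 to Rimbp2 (0.91), a presynaptic protein, and Uqcc4 (0.89). Of these 18 genes, 0 were in the layer and excitatory lists, and the 9 markers themselves were left out of the search.

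The closest relatives of the markers were read as well, since several share a family with a marker and are active in overlapping cells. None of the 14 tested relatives was called, and only 8 of them were given an adjusted p and so could be. Cux1, a homeobox factor that resembles Cux2, had a log2 fold change of −0.04, and Bcl11a had −0.04 beside −0.13 for Bcl11b. Foxp1 had −0.06, close to the −0.05 of Foxp2. Rora, the receptor related to Rorb, had 0.10, and Tle1 had 0.11 where Tle4 had −0.19. Slc17a6, the VGLUT2 transporter found mainly in thalamic neurons, measured 124.6 ± 35.6 in Abi3 WT and 155.7 ± 21.8 in Abi3 KO (0.33, DESeq2 adjusted p = 0.503). Rasgrf1 measured 576.9 ± 206.2 and 477.3 ± 31.8, with a wide spread in Abi3 WT.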

How the data were processed

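Total RNA was extracted from cortices of 6 Abi3 WT and 5 Abi3 KO mice, and libraries were prepared with the QuantSeq 3′ FWD kit without unique molecular identifiers. The authors trimmed the reads, aligned them with STAR 2.7.3a to GRCm39 and counted them per gene and by strand with HTSeq 0.9.1, per the labels' processing notes and the study's methods. Raw counts, deposited as 1 table per animal, were the starting point. Rows of reads outside genes were kept out of library sizes and tests, and their ratio to gene reads is given in the results. Of 53700 identifiers, 52610 (98.0%) matched GENCODE vM39, from which symbols and positions were taken.

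Genes with at least 10 reads in total (19035) were fitted by genotype in DESeq2 1.42.0 (R 4.3.3), the design the study used. A base mean of at least 1.5 was then required (17626 genes). Independent filtering gave 6487 genes above a base mean of 70.4 an adjusted p, and 0.05 or less passed. Values are counts divided by size factors. The shares by layer used raw counts. Correlations used log2(normalized count + 1). Alternatives were edgeR 4.0.16 and limma 3.58.1, TMM and pan-neuronal scaling, other filters, covariates, a replicate block, thinning each library to the gene reads of the smallest and leaving out each animal. Scripts were tested on simulated data. Each library is 1 animal and the labels name no batch. A count of 3 reads is 0.545 to 0.937 CPM in these libraries, and without molecular identifiers counting error is a lower limit. QuantSeq counts are not divided by length, so levels are not compared between genes.

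The 9 markers and the gene lists were chosen with earlier results of these data known. The lists held genes of upper layers, layer 4, deep layers, all excitatory neurons, inhibitory neurons, all neurons, striatal projection neurons, hippocampus, thalamus, astrocytes, microglia, oligodendrocytes, their precursors, endothelium and choroid plexus. From each list, genes past the threshold were named, or else the 2 with the lowest unadjusted p if under 0.05, and for each marker the 2 genes with the highest r. The relatives of the markers were chosen after values were seen.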

Additional observations from a re-analysis of the deposited data

Results flagged for a closer look

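In 2 of the 20 sets of values examined, 1 animal lay farther from the rest of its group than Dixon's 95% limit of 0.71 for 5 animals, and chance alone flags about 1 set in 20. Abi3 KO replicate 1 had 693.2 normalized counts of Rasgrf2, the nearest other animal of its group had 482.5, and that gap was 0.791 of the range. Abi3 KO replicate 5 had 287.9 normalized counts of Neurod6, the nearest other animal had 186.2, and the gap was 0.727 of the range. Without the first animal, the log2 fold change of Rasgrf2 went from −0.06 to −0.21 (DESeq2 unadjusted p = 0.0306, adjusted p = 0.379). Without the second, that of Neurod6 went from 0.44 to 0.25, and the gene was given no adjusted p.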

How the results depend on the processing

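None of the 9 layer markers passed the threshold under the 12 alternative fits or with any of the 11 animals left out. In 7 of these 23 fits, however, 1 to 5 markers were given no adjusted p and so could not pass: Cux2, Fezf2, Foxp2 and Neurod6 in the replicate block, those 4 and Tle4 without Abi3 WT replicate 2, and fewer in the others. The number of all genes past the threshold was 95 and moved to 37 with edgeR, 21 with limma, 57 without independent filtering, 33 with the replicate block, 3 with reads outside genes as a covariate, 10 with the striatal level as a covariate and 46 to 120 with an animal left out (61 without Abi3 WT replicate 1, 48 without Abi3 WT replicate 6, 61 without Abi3 KO replicate 1, 46 without Abi3 KO replicate 2 and 47 without Abi3 KO replicate 5). With pan-neuronal scaling the calls were 10 higher and 108 lower, compared with 60 and 35 in the reported fit. The median log2 fold change of all genes was −0.12 with that scaling, and the values of single genes under it carry this shift. Same-numbered animals had correlations of −0.02 to 0.12, with a mean of 0.040 beside −0.0080 for other pairs. Of the 5 Abi3 WT animals with a same-numbered partner, 2 matched their own number best. With so few animals this cannot decide whether the numbers pair them. Signs turned for Cux2 (−0.069 with pan-neuronal scaling, −0.00012 with reads outside genes, −0.018 with the striatal level, and −0.020 to 0.12 with an animal left out), Rasgrf2 (0.025, striatal level), Rorb (−0.023, reads outside genes), Fezf2 (0.35, reads outside genes, 0.0071 thinned, −0.21 to 0.080 with an animal left out), Foxp2 (0.15, striatal level, −0.11 to 0.020 with an animal left out), Neurod6 (−0.37, reads outside genes), Slc17a7 (−0.072, reads outside genes) and Rprm (−0.035, reads outside genes), and the cause was not tested. Bcl11b (−0.24 to −0.05) and Tle4 (−0.31 to −0.10) stayed below 0 in every fit run. With an animal left out, log2 fold changes ran from −0.21 to −0.0054 for Rasgrf2, 0.13 to 0.24 for Rorb, 0.25 to 0.65 for Neurod6 and 0.049 to 0.19 for Slc17a7. The upper to deep log2 ratio difference of 0.09 was 0.045 with the other upper and deep layer genes added, 0.10 as a mean of log2 counts, 0.13 without Bcl11b and Foxp2, 0.11 with the replicate block and −0.0036 (without Abi3 KO replicate 1) to 0.16 with an animal left out. The call of Rprm (log2 fold change 0.73 in the reported fit) was lost in the block fit (0.62, DESeq2 adjusted p = 0.104). It was also lost with the striatal level (0.80, DESeq2 adjusted p = 0.287). With 6 and 5 animals and counts of 56 to 1550, the 95% intervals of the 9 log2 fold changes reached from −0.44 to 1.07.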

Other observations

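Among the genes of other cell types, 1 rose: Cldn11, a tight junction protein of myelin, measured 241.7 ± 48.1 normalized counts in Abi3 WT and 346.1 ± 29.1 in Abi3 KO animals (log2 fold change 0.53, DESeq2 adjusted p = 0.0106). It was above all Abi3 WT animals in 4 of 5 Abi3 KO animals. The call was lost with pan-neuronal scaling (log2 fold change 0.40, adjusted p = 0.148), with the striatal level as a covariate (0.53, 0.421), with reads outside genes as a covariate (0.61, adjusted p = 1.00) and without Abi3 WT replicate 2 (0.47, no adjusted p). All 7 oligodendrocyte genes and all 4 precursor genes lay above 0, with medians of 0.17 and 0.18, and no other one passed. Of the 4 precursor genes, 2 were given an adjusted p.

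C1qa, a complement gene of microglia, had a log2 fold change of 0.47 (DESeq2 adjusted p = 0.0783), and 6 of 7 microglia genes lay above 0 with a median of 0.18. Astrocyte genes lay below 0 in 6 of 7 cases (median −0.11), and endothelial genes in 3 of 5 (median −0.07). Hippocampal genes held 6 of 8 tested above 0 (median 0.32), with Zbtb20 at −0.21 (DESeq2 adjusted p = 0.209). Only 2 of these 8 were given an adjusted p, and Tdo2, Lefty1 and Dsp had means of 1.7, 3.3 and 5.0 normalized counts. The summed level of the hippocampal genes was lower in Abi3 KO, 372.9 ± 40.7 CPM compared with 424.7 ± 34.8 in Abi3 WT. Thalamic genes held 3 of 5 tested below 0 (median −0.24), with Calb2 at −0.67 and no adjusted p. Choroid plexus genes summed to 969.6 CPM in Abi3 WT replicate 4, 509.2 in Abi3 KO replicate 1 and 632.7 in Abi3 KO replicate 5, and to 15.6 to 44.5 in the other libraries. Only 1 of the 4 was given an adjusted p, and it was not called. Abi3 KO replicate 1 also stood apart for Rasgrf2, and Abi3 KO replicate 5 for Neurod6. For the other gene of each, replicate 1 had 154.2 normalized counts of Neurod6 and replicate 5 had 482.5 of Rasgrf2. Abi3 WT replicate 4, with the highest choroid plexus sum, had 580.2 of Rasgrf2, the highest of its group, and 147.4 of Neurod6. A link to the choroid plexus genes was not tested. Fezf1, the relative of Fezf2, had 0 reads in all Abi3 KO animals and 0 to 9 in Abi3 WT animals.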
